A study of Mus musculus with 18 samples.

Results

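Epithelial adhesion and identity genes were followed across mouse mammary glands: Epcam, Cdh1, Cldn3, Cldn4, Cldn7, Esrp1, Grhl2, Elf3 and Ehf. They were taken by symbol, 9 of the 23337 gene rows of the deposited count table, and all 9 passed the filter on low counts that left 15482 genes for testing. RNA sequencing was done on whole mammary gland tissue from which lymph nodes had been left out, of mice on a C57BL/6Jx129 background, either wild type (WT) or lacking Cip2a (Cip2a-/-), whose protein inhibits the phosphatase PP2A. Each genotype had 3 untreated glands, 3 glands collected 2 weeks after the last dose of 7,12-dimethylbenz[a]anthracene (DMBA, a carcinogen) and 3 tumour-free glands collected at the endpoint, when mice were killed because of DMBA tumours in any tissue. DMBA was given by gavage as 1 mg in oil, 6 times at weekly intervals, from 12 to 14 weeks of age. The ages of the untreated and endpoint mice, an oil-only control and the design of the Cip2a allele were not given here, so DMBA, age and gavage cannot be told apart.

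In the mammary fat pad these genes mark the ducts. Epcam encodes a transmembrane adhesion protein of epithelial cells, Cdh1 encodes E-cadherin of the adherens junction, and Cldn3, Cldn4 and Cldn7 encode claudins, the strand proteins of tight junctions. Esrp1 encodes an RNA-binding protein that sets epithelial splice forms, Grhl2 a Grainyhead-family transcription factor, and Elf3 and Ehf belong to the epithelium-specific ETS factors. The transcription factors Zeb1, Zeb2, Snai1 and Snai2 are known for binding E-boxes (CAGGTG) in promoters of such genes and repressing them. Ducts hold a luminal layer, with hormone-sensing and progenitor cells, and a basal layer of contractile cells. In whole tissue, fewer cells of a type and less RNA per cell cannot be told apart.

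The promoters are shown because Zeb1 and Zeb2, described further on, are among the few genes of the lists that changed. Windows of 250 bases upstream of the start site were matched for 5 of the 9 genes in RefSeq (build GRCm38.p6): Epcam, Cldn3, Cldn4, Cldn7 (with 2 start sites) and Elf3. Cdh1, Esrp1, Grhl2 and Ehf were not matched. The E-box CAGGTG was searched on both strands (CACCTG on the other), and 17.2% of the 32851 promoter windows of the same length held it. It was found in Epcam, Cldn4, Elf3 and at the second start of Cldn7, and not in Cldn3 or at the first start of Cldn7. The 3 windows below run 5′ to 3′ on the gene's strand, with the E-box letters in capitals: chr17:87635729-87635978 on the plus strand for Epcam, chr5:134946935-134947184 on the minus strand for Cldn4 and chr1:135258473-135258722 on the minus strand for Elf3.
Epcam: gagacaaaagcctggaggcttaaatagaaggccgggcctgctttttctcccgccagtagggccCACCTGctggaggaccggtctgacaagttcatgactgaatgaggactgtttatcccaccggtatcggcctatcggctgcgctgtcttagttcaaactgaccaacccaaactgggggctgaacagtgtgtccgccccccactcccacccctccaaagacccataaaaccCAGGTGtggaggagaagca
Cldn4: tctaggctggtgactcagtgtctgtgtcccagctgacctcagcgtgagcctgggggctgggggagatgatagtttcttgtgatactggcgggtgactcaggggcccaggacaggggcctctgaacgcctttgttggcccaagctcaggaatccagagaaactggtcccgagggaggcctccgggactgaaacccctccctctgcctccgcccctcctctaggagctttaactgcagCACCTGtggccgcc
Elf3: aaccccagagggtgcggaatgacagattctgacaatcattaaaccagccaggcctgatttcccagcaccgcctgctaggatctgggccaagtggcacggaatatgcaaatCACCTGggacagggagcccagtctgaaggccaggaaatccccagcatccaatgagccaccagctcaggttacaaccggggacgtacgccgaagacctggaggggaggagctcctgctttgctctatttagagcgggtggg
In Epcam the E-boxes began 187 and 19 bases before the start site, in Cldn4 14 bases and in Elf3 140 bases before it. The Grainyhead letters AACCNGTT (AACNGGTT on the other strand) were in 1.79% of all windows and in none of these 6. The ETS letters AGGAAG, read on both strands (the reverse complement is CTTCCT), were in 29.5% of all windows and, among these, at both starts of Cldn7. A match says only that the letters are there.

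Total counts ran from 16121743 to 24586404 per library. The Cip2a row, listed under the older symbol C330027C09Rik, had 0.831 to 4.88 CPM (counts scaled to the library total) in the 9 WT libraries and at most 0.0598 CPM in the 9 Cip2a-/- libraries. WT endpoint replicate 1 stood apart. It was the lowest of all 18 for each of the 9 genes, for the 4 luminal keratins (summed level 17.7 CPM, against at least 422 CPM in every other gland) and for luminal progenitor markers. It was also the highest for B cell markers (8 genes, summed 1916 CPM) and for brown fat markers (6 genes, summed 8302 CPM). It was the highest as well for T cell markers (summed 573 CPM) and lymph node stroma markers (summed 1652 CPM). The lymph node stroma list shares Glycam1 with the milk protein list. Cip2a-/- endpoint replicate 1, with the highest milk protein sum (6435 CPM), had 1425 CPM of lymph node stroma markers. For skeletal muscle markers WT endpoint replicate 1 was the second highest (8 genes, summed 36301 CPM). Its white adipocyte markers were the lowest, at a summed 12007 CPM. How far other tissue in this sample, lymph node included, set its low values was not tested. By score (mean of centred log2 CPM), Cip2a-/- untreated replicate 3 was the second highest for B cell, T cell and lymph node stroma markers. Medians and scores of the 9 genes are given with and without WT endpoint replicate 1 in the comparisons that use it. Nothing in the labels says whether the 3 glands of a group came from separate litters or days, so p-values measure the spread between these samples.

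Epcam lies at chr17:87635979-87651127 (GRCm38.p6, plus strand). Its level was 75, 138 and 182 CPM in replicates 1 to 3 of the untreated WT glands and 84.2, 252 and 89.7 CPM in the untreated Cip2a-/- glands. At 2 weeks it was 194, 136 and 176 CPM in WT and 94.4, 110.1 and 62.9 CPM in Cip2a-/- glands. All 3 Cip2a-/- values at 2 weeks were below all 3 WT values. The endpoint values were 4.37, 362 and 92 CPM in WT and 280.5, 134 and 439 CPM in Cip2a-/- glands, so that the lowest and the second highest of all 18 values were both in the WT endpoint group. The 4.37 CPM of WT endpoint replicate 1 rested on 69 reads and was 14.4-fold below the second lowest gland.

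Cdh1 (chr8:106603350-106670247, plus strand) had 40.7, 83.7 and 123 CPM in untreated WT and 61.8, 158 and 74.5 CPM in untreated Cip2a-/- glands. At 2 weeks the values were 135, 139 and 174 CPM in WT and 117, 95 and 74.4 CPM in Cip2a-/- glands. The WT glands at 2 weeks were all above both the untreated WT and the 2-week Cip2a-/- glands. The endpoint values were 5.70, 159.9 and 39.5 CPM in WT and 171, 118 and 236 CPM in Cip2a-/- glands, which overlapped. Cdh1 had the smallest gap of the adhesion genes between WT endpoint replicate 1 and the second lowest gland, 6.93-fold.

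Among the claudins, Cldn3 (chr5:134986214-134987476, plus strand) and Cldn4 (chr5:134945123-134946934, minus strand) are neighbours. Cldn3 was at 40, 71 and 74.5 CPM in untreated WT, 29.2, 98 and 41.9 CPM in untreated Cip2a-/-, 72.2, 56.3 and 70.6 CPM in 2-week WT, 46.5, 50.4 and 32.9 CPM in 2-week Cip2a-/-, 1.27, 161 and 43.7 CPM in endpoint WT and 132, 88.4 and 209 CPM in endpoint Cip2a-/- glands. Its order of glands was close to that of Epcam, with the highest value in Cip2a-/- endpoint replicate 3 for both.

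Cldn4 was at 32.4, 54.7 and 86.8 CPM in untreated WT and 41.7, 72.3 and 59.3 CPM in untreated Cip2a-/- glands. At 2 weeks it was 75.3, 144 and 232 CPM in WT and 139.6, 101 and 75 CPM in Cip2a-/- glands. In endpoint glands it stood at 2.28, 146 and 34.9 CPM in WT and 110.2, 189.6 and 311 CPM in Cip2a-/- glands. In Cip2a-/- mice every 2-week and every endpoint gland was above every untreated gland. In WT mice the 2-week and untreated values overlapped.

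Cldn7 (chr11:69964779-69967886, plus strand) was lower in reads, at 11.8, 16.4 and 19.4 CPM in untreated WT, 6.81, 33.2 and 9.56 CPM in untreated Cip2a-/-, 23, 17.8 and 27.1 CPM in 2-week WT, 17, 16 and 9.0 CPM in 2-week Cip2a-/-, 0.253, 47.7 and 8.22 CPM in endpoint WT and 48.4, 18.8 and 42.9 CPM in endpoint Cip2a-/- glands. Only 4 reads lay behind the value of WT endpoint replicate 1.

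Esrp1 (chr4:11331933-11386783, minus strand), the splicing regulator, was at 12.1, 31.8 and 37.8 CPM in untreated WT, 18.2, 54.8 and 19.6 CPM in untreated Cip2a-/-, 49.6, 35.4 and 37.5 CPM in 2-week WT, 23.4, 25.9 and 14.1 CPM in 2-week Cip2a-/-, 0.824, 75 and 8.72 CPM in endpoint WT and 57, 25.5 and 88.6 CPM in endpoint Cip2a-/- glands. The groups overlapped except for the genotypes at 2 weeks, where every Cip2a-/- gland was below every WT gland.

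Grhl2 (chr15:37232821-37363569, plus strand), the Grainyhead factor, was at 7.24, 18.9 and 20.3 CPM in untreated WT, 11.2, 30 and 9.90 CPM in untreated Cip2a-/-, 33, 16.6 and 17.3 CPM in 2-week WT, 17.8, 12.2 and 8.49 CPM in 2-week Cip2a-/-, 0.190, 36.3 and 6.83 CPM in endpoint WT and 25.6, 16.4 and 28.4 CPM in endpoint Cip2a-/- glands. It had 3 reads in WT endpoint replicate 1 and, at 35.9-fold, the widest gap of the 9 genes to the second lowest gland. No 2 of the compared groups were separate for it.

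Elf3 (chr1:135253574-135258472, minus strand) was at 11.7, 24.3 and 27.6 CPM in untreated WT and 13.5, 17.2 and 15.7 CPM in untreated Cip2a-/- glands. At 2 weeks it was 30.8, 19.9 and 23.6 CPM in WT and 12.9, 17.5 and 16.1 CPM in Cip2a-/- glands. Endpoint glands had 0.824, 28.3 and 9.80 CPM in WT and 44.8, 37.6 and 33.5 CPM in Cip2a-/- glands. The 3 Cip2a-/- endpoint glands held the 3 highest Elf3 values of all 18 glands.

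Ehf (chr2:103263431-103303275, minus strand) had another order. It was at 11.2, 64.2 and 55.2 CPM in untreated WT and 28.3, 153 and 18.4 CPM in untreated Cip2a-/- glands. At 2 weeks it was 121, 15.3 and 14.6 CPM in WT and 7.95, 19.4 and 7.05 CPM in Cip2a-/- glands. At the endpoint it was 5.20, 108 and 10.1 CPM in WT and 74, 12.8 and 54 CPM in Cip2a-/- glands. Within a group, 1 gland was often several times above another, and the highest gland was 21.6-fold above the second lowest, against 4.57-fold to 10.2-fold for the other 8 genes. WT endpoint replicate 1 was only 1.36-fold below the second lowest gland for Ehf.

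**Figure D1:**
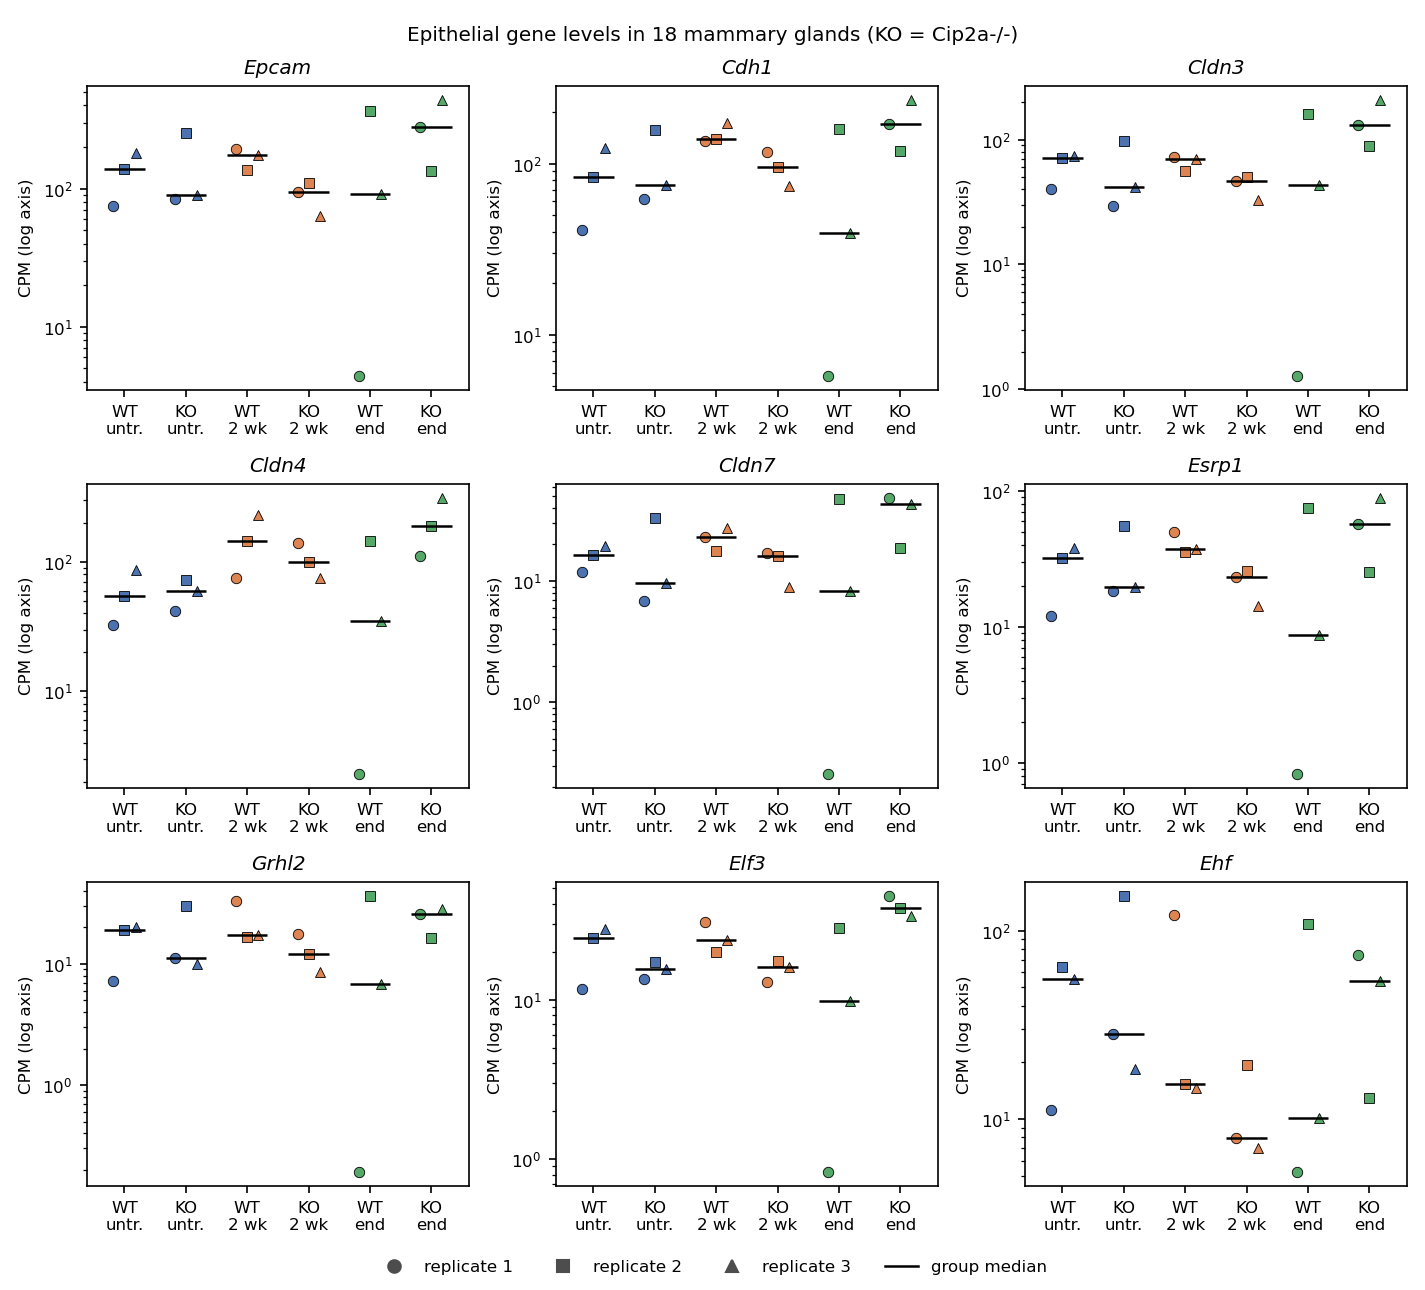
Level of each epithelial gene in CPM (log axis) in the 18 glands, by genotype (KO is Cip2a-/-) and time; points are glands, shaped by replicate, and lines are group medians. WT endpoint replicate 1 is the lowest point in every panel, and Ehf spreads most among the other 17 glands.

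Antisense or other genes on the opposite strand overlap exons of Cldn3 (Wbscr25), Esrp1 (Gm26663), Grhl2 (Gm16136) and Elf3 (Gm26642) in the annotation used, and no source here gives the strand setting of the counting, so reads of these 4 may include the neighbour's. Per kilobase of exon, the median level over the 18 glands was highest for Epcam, at 61.5 CPM per kb, and then 50.4 for Cldn3, 44.6 for Cldn4 and 25.7 for Cdh1. It was 8.92 CPM per kb for Cldn7, 8.44 for Elf3, 4.58 for Esrp1, 3.39 for Ehf and 1.97 for Grhl2. By this level Epcam ranked first of the 9 in 12 glands and Cldn4 in 6, Cdh1 was the fourth in 17 glands, and Grhl2 was last in 17. Epcam, Cldn3, Cldn4 and Cdh1 were thus above the regulators in every gland.

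The effect of DMBA after 2 weeks was compared with untreated glands in each genotype. In WT glands all 9 genes had positive log2 fold changes, with a median of 0.51 beside -0.02 over all genes, and none was called by edgeR's quasi-likelihood test (adjusted p 0.953 to 0.987). The background was the same, with 0% of genes called. The lowest was Cldn3 at 0.10 ± 0.90 (SE) and the highest was Cldn4 at 1.38 ± 0.88. Only Cdh1 had groups that did not overlap, and 25.8% of all genes did not. In Cip2a-/- glands the median was -0.38 beside 0.00 over all genes, 7 of the 9 were negative, and none was called (background 0.0129%, adjusted p 0.920 to 1). Ehf was lowest at -2.53 ± 1.24 with an adjusted p of 0.920, and Cldn4 highest at 0.86 ± 0.87. Cldn4 alone had separate groups, against 12.4% of all genes. DESeq2 called none in either genotype. None of the 9 had an unadjusted p under 0.05, which 4.23% of all genes had in WT and 4.53% in Cip2a-/- glands.

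The 2 genotypes were therefore compared directly. In untreated glands 6 of the 9 genes were positive in Cip2a-/- against WT, with a median of 0.11 beside 0.04 over all genes, from Elf3 at -0.46 ± 0.69 to Ehf at 0.61 ± 1.17. None was called (background 0%, every adjusted p at 1) and none had separate groups (12.4% of all genes had). At an unadjusted p under 0.05 there were 0 of the 9 and 2.27% of all genes. The median was -0.55 without Cip2a-/- untreated replicate 2, the gland with most Ehf. At 2 weeks all 9 had negative values in Cip2a-/- against WT glands, with a median of -0.69 beside 0.04, from Ehf at -2.13 ± 1.22 to Cldn4 at -0.52 ± 0.87. Again none was called (background 0.00646%), every adjusted p was 1, and 0 of the 9 had an unadjusted p under 0.05 (2.44% of all genes). In 6 of the 9 (Epcam, Cdh1, Cldn3, Cldn7, Esrp1 and Elf3) the genotypes did not overlap at 2 weeks, against 13.2% of all genes. These 6 varied together from gland to gland, as described below, so they are not 6 independent observations. At 2 weeks the luminal keratins had scores (means of centred log2 CPM) of 0.39, 0.70 and 1.58 in the 3 WT glands, beside 0.53, 0.42 and -0.17 in the 3 lacking Cip2a. With that score as a covariate the 9 values ran from Ehf, still the lowest, to Cldn4 at 0.09, and none was called (background 0%). The interaction of genotype with DMBA at 2 weeks was negative for all 9, with a median of -0.90 beside -0.01, and called none (background 0%, adjusted p 0.999). For 2.90% of all genes, and none of the 9, its unadjusted p was under 0.05. Ehf had the lowest interaction, -2.74 ± 1.69. Markers of other cells at 2 weeks were read in the same fit, and none was called: all 8 B cell markers (median 4.54) and all 8 skeletal muscle markers (2.89) had positive values. Summed B cell markers were 3.87 to 5.30 CPM in WT and 1.23 to 242 CPM in Cip2a-/- glands, and muscle markers 199 to 6013 and 149 to 58041 CPM, so both lists overlapped. Their part in the values of the 9 genes was not tested.

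At the endpoint all 9 had positive values in Cip2a-/- against WT glands, with a median of 1.01 beside -0.02 over all genes and values from Ehf at 0.19 ± 1.17 to Cldn4 at 1.74 ± 0.89. None was called (background 0.00646%, adjusted p 0.459 to 0.957). Elf3, at 1.57 ± 0.70, was the one gene with an unadjusted p under 0.05 in any of the 10 comparisons (edgeR adjusted p = 0.459), and 10.7% of all genes had such a p there. It was also the only one of the 9 whose genotypes did not overlap at the endpoint, against 5.28% of all genes. Its Cip2a-/- values lay between 33.5 and 44.8 CPM and its WT values at or below 28.3 CPM. With WT endpoint replicate 1 left out the median was 0.40 and the Elf3 value 0.99. Without WT endpoint replicate 2, the high WT gland, the median was 2.86. In the same comparison no marker of other tissues was called. All 8 B cell markers (median -5.27), all 8 skeletal muscle markers (-6.40) and all 6 brown fat markers (-2.76) had negative values, and all 8 fibroblast markers (1.02) positive ones. Summed levels in WT and Cip2a-/- endpoint glands were 4.49 to 1916 and 5.32 to 39.5 CPM for B cell, 48.7 to 36301 and 91.9 to 292 CPM for muscle, 38.7 to 8302 and 75.5 to 232 CPM for brown fat and 644 to 3008 and 1228 to 4040 CPM for fibroblast markers. Without WT endpoint replicate 1 the 4 medians were -3.34, -2.21, 0.28 and 0.69. The part of these tissues in the values of the 9 genes was not tested.

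Against untreated glands of the same genotype, the WT endpoint glands had a median of 0.06 (5 of 9 positive, all-gene median 0.08), from Elf3 at -0.70 ± 0.69 to Cldn7 at 0.24 ± 0.98. The score of the 9 genes, which averages logs and so weights the low library more, moved by -1.39 in the same comparison. That difference was 0.20 without WT endpoint replicate 1 and -2.77 without WT endpoint replicate 2, and the median was 0.62 and -1.90 without the same glands. None of the 9 was called (background 0.0323%, adjusted p 0.701 to 0.988), and none had separate groups (16.3% of all genes had). In Cip2a-/- glands 8 of 9 were positive, with a median of 1.00 beside -0.04, and Ehf was the exception at -0.50 ± 1.17. Cldn4 was highest at 1.82 ± 0.89 (edgeR adjusted p = 0.354), and none was called (background 0%). Cldn4 and Elf3 had separate groups, against 17.6% of all genes. The interaction of genotype with DMBA at the endpoint had a median of 0.91 beside -0.07, with 8 of 9 positive, from Ehf at -0.42 ± 1.65 to Elf3 at 2.02 ± 0.98 (edgeR adjusted p = 0.50). None was called (background 0%), and the median was 0.33 without WT endpoint replicate 1.

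The endpoint against 2 weeks, over both genotypes, was the comparison with most calls across the transcriptome, 13.4% of genes. None of the 9 was among them (adjusted p 0.373 to 0.914). The median was 0.45 beside 0.05 over all genes, from Cldn4 at -0.17 ± 0.61 to Cldn3 at 0.89 ± 0.64, while the score moved by -0.32, the opposite sign. No gene of the 9 had separate groups, against 6.16% of all genes, or an unadjusted p under 0.05, against 30.1%. Without WT endpoint replicate 1, Cldn3 passed as higher at the endpoint (log2 fold change 1.17, edgeR adjusted p = 0.0416), 1 of 9. The median was then 0.73 and the score difference 0.48. The share of all genes called in that fit is not given here, so the 1 of 9 cannot be set against it. Without WT endpoint replicate 2 the median was -0.51.

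**Figure D2:**
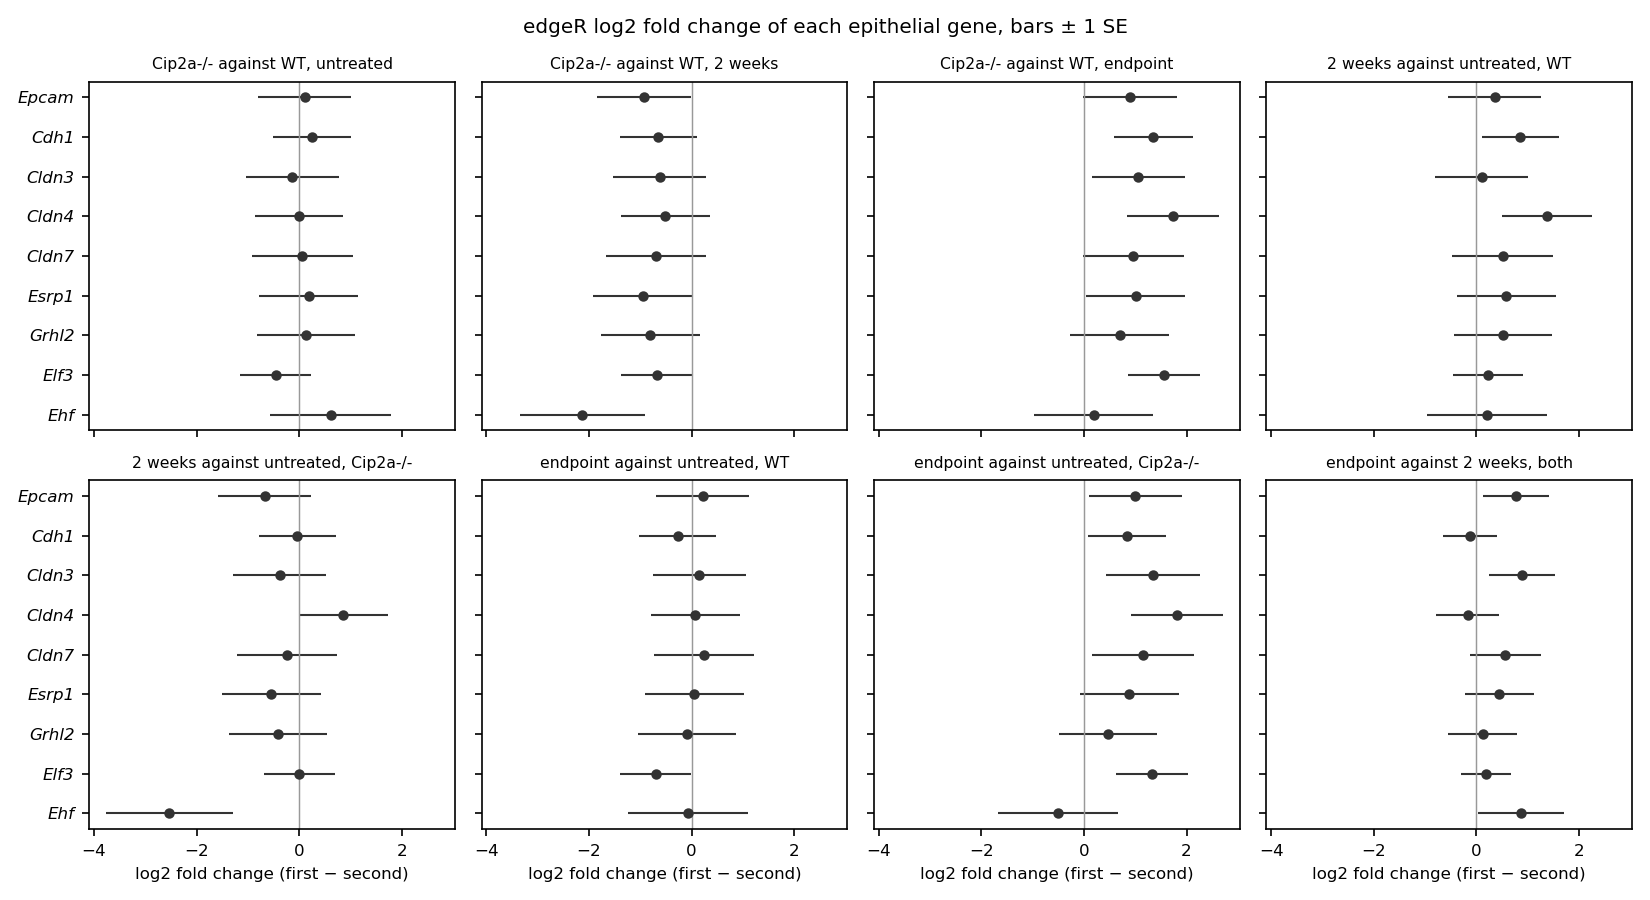
edgeR log2 fold change (first group minus second) of each epithelial gene in 8 comparisons, with bars of 1 SE either way. All 9 genes lie left of 0 for the genotypes at 2 weeks and right of 0 at the endpoint, with most bars reaching close to 0 or across it, and Ehf has the widest bars.

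The score of the 9 genes places each gland on 1 axis. It was -0.83, 0.32 and 0.57 in untreated WT, -0.53, 0.97 and -0.38 in untreated Cip2a-/-, 0.86, 0.26 and 0.56 in 2-week WT and -0.09, -0.01 and -0.67 in 2-week Cip2a-/- glands. The WT glands of the endpoint were at -4.57, 1.38 and -0.93, those lacking Cip2a at 1.19, 0.38 and 1.53. The Cip2a-/- endpoint glands were all above 0, and the WT endpoint glands spanned nearly the whole range. The SD within a group was 0.296 to 0.825 in 5 groups and 3.0 in the WT endpoint group. Pooled over groups it was 1.34, larger than the score difference in 7 of the 10 comparisons, and without WT endpoint replicate 1 it was 0.743, larger than the difference in 5 of the 10. The luminal keratins had endpoint scores of -5.47, 1.55 and -0.77 (WT) beside 1.62, 0.45 and 1.77 (Cip2a-/-), with the lowest value in the same gland. Cip2a-/- untreated replicate 3 had a high epidermal score (3.82, next highest 0.917), while its score of the 9 genes was -0.38.

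**Figure D3:**
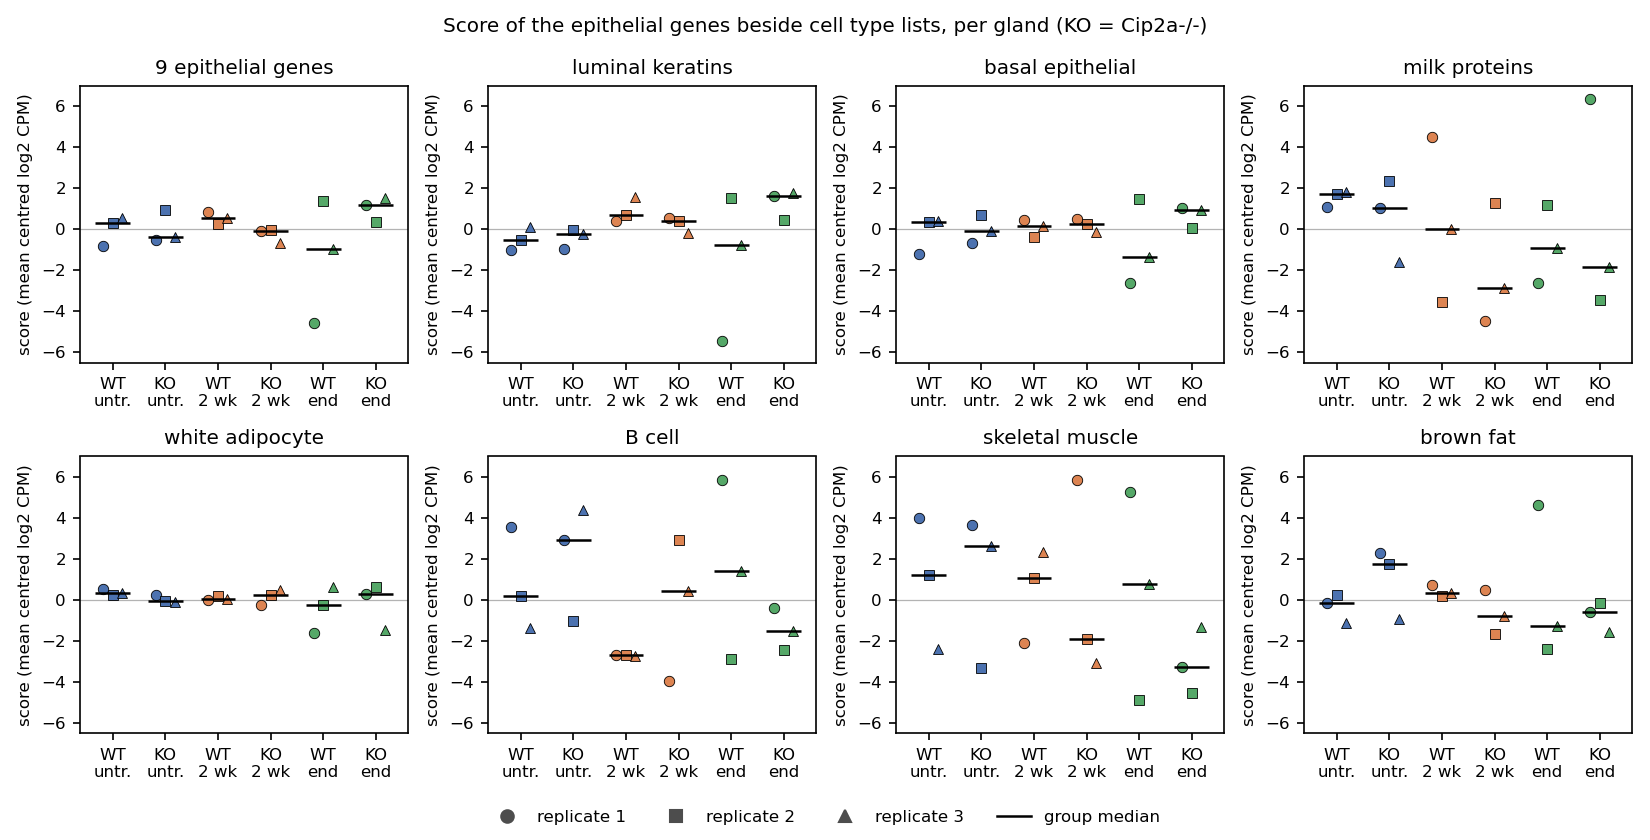
Score (mean of log2 CPM centred per gene) of the 9 epithelial genes and of 7 cell type lists in each gland, by genotype (KO is Cip2a-/-) and time, with group medians as lines. WT endpoint replicate 1 is at -4.57 for the 9 genes and -5.47 for luminal keratins, and at 5.87 for B cell markers.

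To see what moved beyond the overall luminal level, the luminal keratin score (Krt7, Krt8, Krt18 and Krt19) was added to the model as a covariate. None of the 9 was called in any comparison. Of all genes 15.8% were called at the endpoint against 2 weeks, and at most 0.0388% in each other comparison. The smallest edgeR adjusted p of the 9 was 0.0551, for Cldn3 at the endpoint against 2 weeks (0.68 ± 0.23). In 2-week against untreated Cip2a-/- glands 6 of the 9 had an unadjusted p under 0.05, all of them negative, where 6.83% of all genes had such a p: Epcam (-1.20 ± 0.33), Cldn3, Cldn7, Esrp1, Grhl2 and Ehf (-2.84 ± 1.06). Their smallest adjusted p was 0.586. Cldn4 stood at 0.31 ± 0.33 in the same fit. In WT glands 3 of the 9 had such a p at 2 weeks against untreated (5.84% of all genes), the lowest being Cldn3 at -1.11 ± 0.33 (edgeR adjusted p = 0.805). In this fit Cldn4 did not share the lower values of Cldn3 and Epcam, but no difference between these genes was tested. The keratins had positive values at 2 weeks, with medians of 1.44 in WT and 0.73 in Cip2a-/- glands. A gene that rose less than they did is lowered by the covariate. Without WT endpoint replicate 1 the keratin score had an r of 0.893 with Cldn4, 0.772 with Cldn3 and 0.765 with Epcam. No other covariate was fitted, so the part of this choice in the contrast between these genes was not tested.

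Ratios within a gland take out the amount of epithelium where both genes come from the same cells. Per 100 Epcam reads, Cldn4 had 43.1, 39.5 and 47.8 reads in untreated WT and 49.5, 28.6 and 66.1 reads in untreated Cip2a-/- glands. At 2 weeks it had 38.7, 105 and 132 reads in WT and 148, 91.3 and 119 reads in Cip2a-/- glands. At the endpoint it had 52.2, 40.3 and 37.9 reads in WT and 39.3, 142 and 70.9 reads in Cip2a-/- glands. At 2 weeks 5 of the 6 glands were above every untreated gland, and WT 2-week replicate 1 was not.

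Cdh1 had 54.3 to 83.0 reads per 100 Epcam reads in the 6 untreated glands, with a median of 65.0. At 2 weeks it had 69.3 to 124, with a median of 100.4, and 5 of the 6 glands were again above every untreated gland, with WT 2-week replicate 1 at 69.3 the exception. Endpoint glands had 42.9 to 130 reads, or at most 88.4 without WT endpoint replicate 1. Ehf went the other way: its median was 32.0 reads in untreated glands (14.9 to 60.5), 11.2 at 2 weeks (8.29 to 62.2) and 19.4 at the endpoint (9.59 to 119, or at most 29.9 without WT endpoint replicate 1). The 62.2 of WT 2-week replicate 1 was again apart from the other 2-week glands, of which the highest was 17.7.

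Esrp1 had 16.1 to 23.0 reads per 100 Epcam reads in untreated, 21.3 to 26.0 in 2-week and 9.48 to 20.7 in endpoint glands. Cldn3 had 34.7 to 53.3, 37.1 to 52.3 and 29.0 to 66.0 reads in the same order of times, and at least 44.5 reads at the endpoint without WT endpoint replicate 1. These ratios were formed after the levels were known and were not tested. The genes differ in length, and the part of length in the ratios was not tested either.

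**Figure D4:**
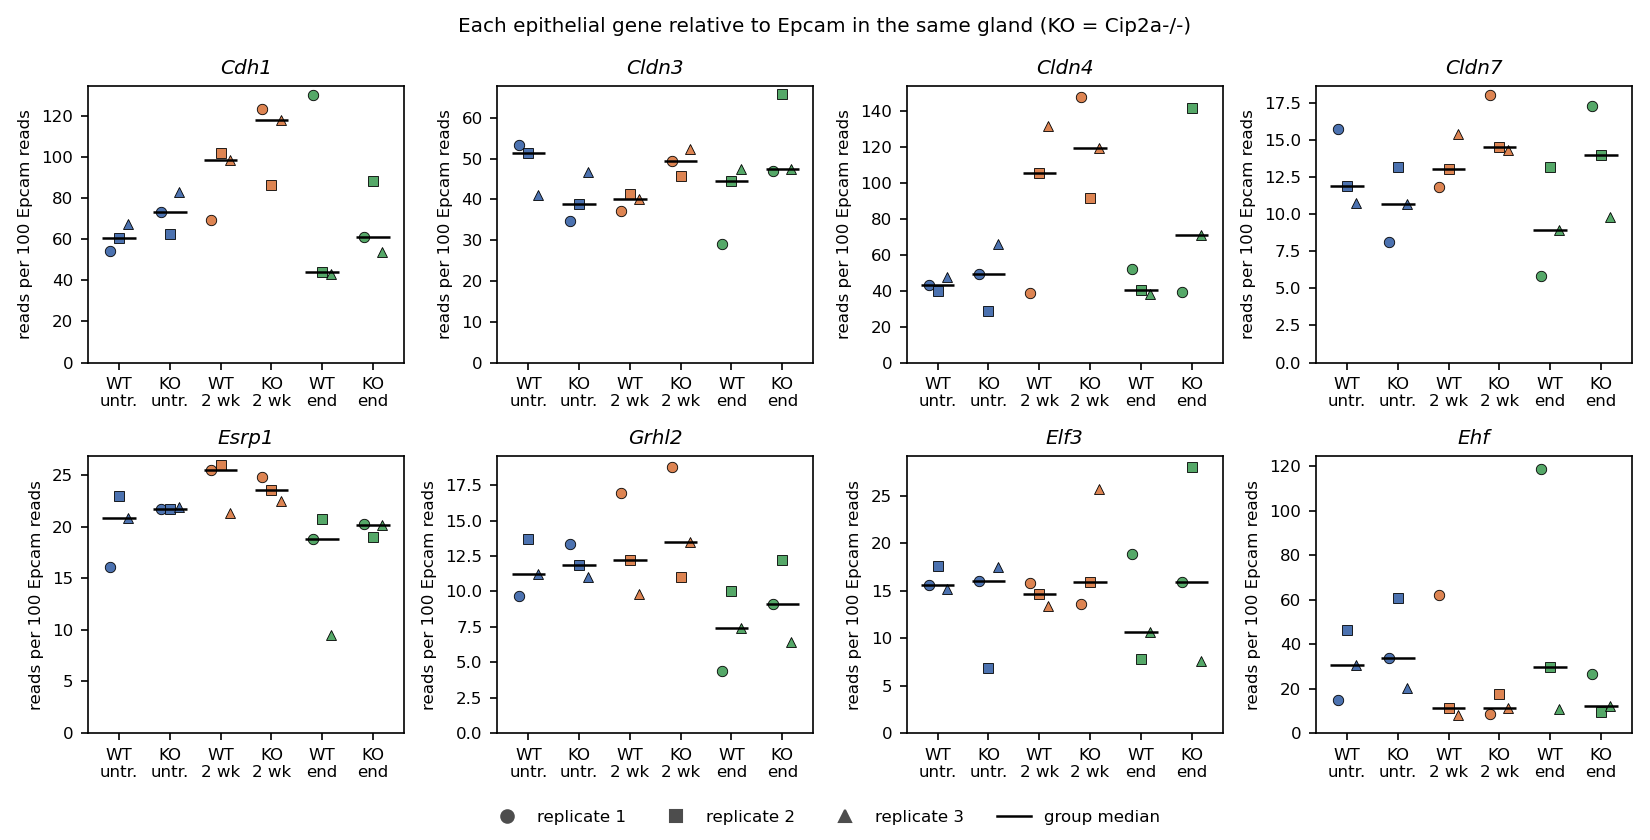
Reads of 8 epithelial genes per 100 Epcam reads in each gland (linear axes from 0), by genotype (KO is Cip2a-/-) and time, with group medians as lines. For Cdh1 and Cldn4 all 2-week glands but WT replicate 1 lie above the untreated glands; for Ehf, 5 of the 6 glands at 2 weeks lie at or below 17.7.

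Across the 18 glands, log2 CPM of the 36 gene pairs had Pearson's r from 0.347 to 0.987, with a median of 0.934. The points share library depth and the amount of epithelium, so these are descriptions. Epcam and Cldn3 were the closest pair, at 0.987, and Cldn4 and Ehf the most distant. Without WT endpoint replicate 1 the median was 0.779, Epcam and Cldn3 stood at 0.962, and Cldn4 and Ehf at 0.079. Most of the likeness of Ehf to Cldn4 thus came from 1 library.

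Cldn4 and Ehf were set beside the marker lists of the mammary layers. Without WT endpoint replicate 1, Cldn4 had an r of 0.893 with the luminal keratin score, 0.684 with hormone-sensing luminal markers, 0.007 with luminal progenitor markers and -0.285 with milk protein genes. Ehf had 0.299, 0.313, 0.807 and 0.723 with the same 4 lists over the same 17 glands. With basal markers the r was 0.635 for Cldn4 and 0.669 for Ehf. No difference between these values was tested. Of single genes, Krt7, a luminal keratin, was the most like Cldn4 (r = 0.981 over 18 glands and 0.945 without that library).

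Ehf was followed gland by gland by Elf5, the ETS factor of luminal progenitors that drives milk genes, a gene picked out after its values were seen. Elf5 had 24.6, 71.2 and 49.3 CPM in untreated WT, 24.7, 95.3 and 13.9 CPM in untreated Cip2a-/-, 132, 12.2 and 9.09 CPM in 2-week WT, 2.19, 17.9 and 7.05 CPM in 2-week Cip2a-/-, 0.127, 91.1 and 15.9 CPM in endpoint WT and 124, 15.3 and 64.8 CPM in endpoint Cip2a-/- glands. The 7 glands with most Ehf were the 7 with most Elf5, and also the 7 with most Csn3, the kappa-casein gene. The 7 highest stood at or above 54.0 CPM of Ehf, and the next gland at 28.3 CPM. The cut at 7 glands was also set after the values were seen. The r of Ehf was 0.864 with Elf5 and 0.803 with Csn3 over 18 glands (0.917 and 0.830 without WT endpoint replicate 1). Elf5 and Csn3 are in the progenitor list and Csn3 is also in the milk protein list. Their likeness to Ehf is thus not separate from that of these lists. These 7 glands came from every group other than the Cip2a-/- glands at 2 weeks. By r Elf5 ranked 90 of the genes tested outside the 9, and the named genes most like Ehf were Col9a3 (0.972) and Mtap2 (0.962).

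**Figure D5:**
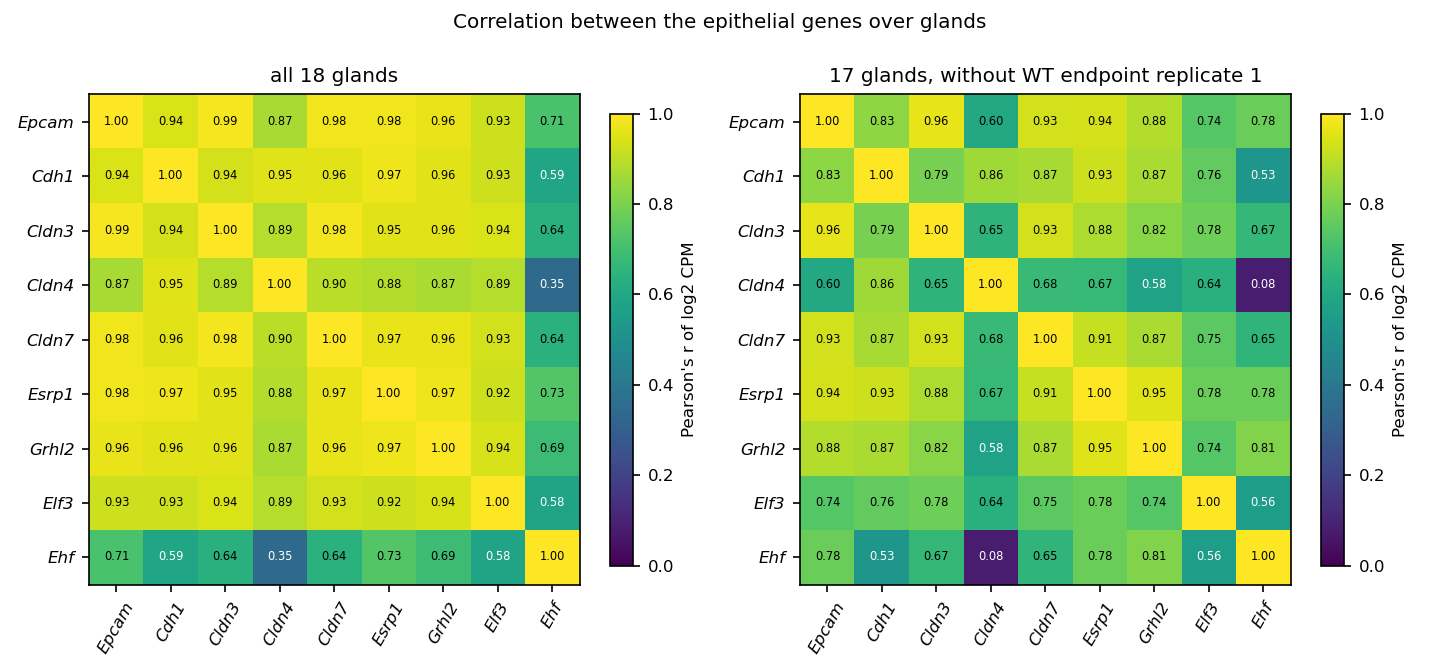
Pearson's r of log2 CPM between each pair of epithelial genes, over 18 glands (left) and 17 glands without WT endpoint replicate 1 (right), with colour from 0 to 1. Without that library the lowest values are in the rows of Cldn4 and Ehf, with 0.08 between them.

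Among 11322 candidate genes outside the 9, the 8 whose log2 CPM over the 18 glands was most like the score of the 9 were Tfap2a (r = 0.989), Marveld3 and Bnipl (0.985), Mapk13 (0.984), Rab25 (0.983), and Cblc, Prss8 and Ccdc120 (0.981). Tfap2a encodes a transcription factor of the AP-2 family, Marveld3 a tight junction protein, Rab25 an epithelial small GTPase and Prss8 a membrane-anchored serine protease. Their r was 0.940 to 0.982 without WT endpoint replicate 1, and 3 of the 8 (Tfap2a, Bnipl and Mapk13) stayed among the 8 most alike. Tfap2a itself ranged from 0.760 CPM in WT endpoint replicate 1 to 29.7 CPM in WT endpoint replicate 2.

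Of the other genes of the same pathways, 26 of 27 junction and polarity genes, all 18 epithelial transcription and splicing factors and all 10 epithelial repressors and mesenchymal genes were tested. In 9 of the 10 comparisons edgeR called none of them. At the endpoint against 2 weeks 1 of 26 junction and polarity genes rose, 1 of 18 factors fell and 2 of 10 repressors and mesenchymal genes fell, beside 13.4% of all genes called in either direction. Their median log2 fold changes were 0.48, 0.18 and -0.40, beside 0.05 over all genes. Without WT endpoint replicate 1 the medians of these lists were 0.68, 0.43 and -0.30.

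The junction gene that rose was Llgl2, which encodes a polarity protein of the basolateral membrane, by 0.44 ± 0.13 on the log2 scale (mean 31.4 against 23.2 CPM, edgeR adjusted p = 0.0363). The call was lost in the fit with only the groups compared, without the low-count filter, and without any 1 library other than Cip2a-/- 2-week replicate 2, Cip2a-/- endpoint replicate 1 or WT endpoint replicate 1. Without that WT gland 3 junction genes passed, and the share of all genes called in that fit is not given here. With the luminal keratin score as a covariate 4 passed, where 15.8% of all genes were called. The Llgl2 groups overlapped. The factor that fell was Rbm47, an RNA-binding protein of epithelia and myeloid cells, by -0.56 ± 0.14 (24.8 against 36.6 CPM, edgeR adjusted p = 0.0231), with groups that did not overlap. That list's count fell to 0 without WT 2-week replicate 3 or Cip2a-/- 2-week replicate 1 and in the fit with only the groups compared, and was 2 without WT endpoint replicate 2.

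The repressors that fell were Zeb1 and Zeb2. Zeb2 had 78.6, 112 and 147 CPM in WT and 201, 131 and 139 CPM in Cip2a-/- glands at 2 weeks. At the endpoint it had 29.1, 32.2 and 38.1 CPM in WT and 57.7, 62.5 and 19 CPM in Cip2a-/- glands, every one below every 2-week gland. Its log2 fold change was -1.76 ± 0.26 (edgeR adjusted p = 0.00339), and that of Zeb1 was -0.58 ± 0.14 (mean 42.0 against 63.3 CPM, edgeR adjusted p = 0.0180). At least 2 genes of the list passed in each fit that left out 1 library, and 4 passed without WT endpoint replicate 2. Zeb1 and Zeb2 are also expressed by stromal and immune cells, and 6 of 8 fibroblast markers fell in the same comparison, Col3a1 by -2.78 ± 0.57 (550 against 3759 CPM). The fibroblast count was 2 with only the groups compared or without WT 2-week replicate 2, WT 2-week replicate 3 or Cip2a-/- 2-week replicate 3, 3 without Cip2a-/- endpoint replicate 3 and 4 without WT endpoint replicate 1. Genes with longer exons were also relatively lower at the endpoint than at 2 weeks. With CPM here scaled to the library total, the slope of log2 CPM per doubling of merged exon length was -0.155 to -0.006 in endpoint glands. It was -0.001 to 0.139 in 2-week glands. Untreated glands had -0.109 to 0.1. Among the 9 genes this length ran from 1.26 kb for Cldn3 to 8.61 kb for Grhl2, and its part in their values was not tested. The parts of fibroblast content and of length in the Zeb1 and Zeb2 values were not tested. Of the genes with an E-box in a window, Epcam stood at 0.77, Cldn4 at -0.17, Cldn7 (at its second start) at 0.56 and Elf3 at 0.19 in this comparison. Cldn3, with none in its window, stood at 0.89, and none of the 5 was called.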

How the data were processed

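RNA of 18 whole mammary glands (6 groups of 3) was sequenced from TruSeq Stranded mRNA libraries, per the labels' protocols. The authors deposited a table of unnormalised counts with 1 row per symbol and a column for each library, per the file headers. The submitters' processing notes list bcl2fastq 2.17, STAR 2.5.2b, Subread 1.5.1 and build mm10; no source used here gives the annotation, strand setting or handling of multiply mapped reads. Low counts were removed with filterByExpr (at least 10 counts, at least 15 in total), and libraries were scaled by TMM and fitted in edgeR 4.0.16 (R 4.3.3) with 1 term per group over all 18 libraries. The quasi-likelihood test was adjusted by Benjamini-Hochberg over 15482 genes, and a call needs an adjusted p under 0.05. The SE is the log2 fold change divided by the square root of F. Levels are CPM on the TMM-scaled library sizes, and log2 CPM used a prior count of 2. A score is the mean over genes of log2 CPM centred per gene. Tests were two-sided, in 10 comparisons. All comparisons with the same untreated or 2-week group share those libraries. Exon lengths for CPM per kb are merged exons of GENCODE M21. Alternatives were DESeq2 1.42.0, RLE scaling, no filter, only the groups compared, a replicate block, a luminal keratin covariate and leaving out each library. The tests were run on simulated counts with independent genes and a fixed dispersion. The 9 genes varied together and more widely than that, so the run does not show what could be called here. The genes and lists were chosen with earlier results of these data known. All 9 genes are named; of other genes, the 8 most like their score with a mean CPM of at least 5 and a gene name, and those called in the lists described. The genes most like Ehf and Cldn4, and the pairing of Ehf with Elf5 and Csn3, were added after the values were seen. No source used here names a batch; the column headers carry a number per library that is higher in the 2-week libraries, and its meaning is not given, so it cannot be told apart from the time.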

Additional observations from a re-analysis of the deposited data

How the results depend on the processing

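None of the 9 genes was called in any comparison by edgeR, under DESeq2, RLE scaling, no low-count filter, the fit with only the groups compared, the replicate block or the luminal keratin covariate, or in the fits that left out 1 library, other than Cldn3 at the endpoint against 2 weeks (0 to 1 genes called; fold change 0.08 to 1.17 against 0.89). Of 702 fold changes with 1 library left out 73 had the opposite sign to the value reported, and of 540 under the other alternatives 47 had. With the luminal keratin covariate Cldn4 in Cip2a-/- against WT at 2 weeks was 0.09, Ehf in Cip2a-/- against WT at the endpoint -0.74, Cldn3 in 2-week against untreated WT glands -1.11, Cldn7 in endpoint against untreated WT glands -0.59, and the Elf3 interaction at 2 weeks 0.15; the median of the 9 in endpoint against untreated Cip2a-/- glands was -0.54. The covariate is itself an epithelial measure, so it removes what these genes share with it. The replicate block turned Cldn7 in endpoint against untreated WT glands to -0.22, Ehf in endpoint against untreated Cip2a-/- glands to 0.28 and the Ehf interaction at the endpoint to 0.98, and it called 0 of the 9 in each comparison. Same-numbered samples share only a number: in 0 of 7 comparisons did every pair correlate above 0.1 (range -0.468 to 0.660). The cause of these sign changes was not tested.

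With 1 library left out in turn, Ehf ranged from -0.90 to 1.06 in untreated Cip2a-/- against WT, from -0.37 to 2.62 at the endpoint, from -1.0 to 1.01 in endpoint against untreated Cip2a-/- glands, and from -0.94 to 2.00 for the interaction at the endpoint. Cldn3 ranged from -0.15 to 0.26 in 2-week against untreated WT glands, Cldn7 from -1.90 to 0.82 in endpoint against untreated WT glands, Cldn4 from -1.03 to 0.11 at the endpoint against 2 weeks, and the Elf3 interaction at 2 weeks from -0.46 to 0.10. The median of the 9 ranged from 0.40 to 2.86 in Cip2a-/- against WT at the endpoint, from -1.90 to 0.62 in endpoint against untreated WT glands and from 0.33 to 2.80 for the interaction at the endpoint. The score difference ranged from 0.78 to 3.78, from -2.77 to 0.20 and from 0.81 to 3.78 in the same comparisons, against 2.41, -1.39 and 2.41 with all libraries. The median correlation between the genes ranged from 0.78 to 0.95. In the other lists, 0 to 3 junction genes, 0 to 2 factors, 2 to 4 repressors and 2 to 6 fibroblast markers were called. Groups of 3 and SEs of 0.49 to 1.69 limit what could be called.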

Other observations

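Hormone-sensing luminal markers did not move together between 2 weeks and the endpoint, over both genotypes. Of 8 such genes edgeR called 1 lower and 1 higher at the endpoint, beside 13.4% of all genes called in either direction. Esr1, the estrogen receptor, fell by 2.49 ± 0.49 on the log2 scale (mean 4.84 against 27.8 CPM, edgeR adjusted p = 0.00931). Every endpoint gland was below every 2-week gland for Esr1. In the same comparison 6 of 8 fibroblast markers were called lower. The parts of fibroblast content and of exon length in the Esr1 value were not tested. Tnfsf11, which encodes the RANK ligand and is also made by immune cells, rose by 5.35 ± 1.67 (25.6 against 0.613 CPM, adjusted p = 0.0479), with groups that overlapped and 103 CPM in the highest WT endpoint gland. Alternatives for these genes were chosen after the data were seen. Esr1 passed in each of them, with log2 fold changes from -2.68 to -1.84, and stood at -2.54 without WT endpoint replicate 1. Tnfsf11 stood at 5.59 without that gland (edgeR adjusted p = 0.0392), but its call was lost without any 1 library other than WT endpoint replicate 1, Cip2a-/- endpoint replicate 1 or Cip2a-/- endpoint replicate 2. The fold change was 2.76 without Cip2a-/- endpoint replicate 3 (edgeR adjusted p = 0.253). The Tnfsf11 call was also lost without the low-count filter, with only the groups compared and with the replicate block (edgeR adjusted p = 0.0557, 0.0748 and 0.058). The number of these 8 genes called lower was 2 without WT endpoint replicate 2 and 3 with the luminal keratin covariate. With that covariate 15.8% of all genes were called in either direction.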
